A study of Mus musculus with 6 samples.

Results

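SR proteins, their Tra2 relatives and the hnRNPs bind pre-mRNA and set which exons and introns a transcript keeps. The 32 genes described here are all listed genes whose symbol begins with Srsf and a digit, begins with Hnrn, or is Tra2a or Tra2b. They are 32 of 17027 gene symbols and hold 255 of 50829 listed isoforms. The rule used symbols and no measured value, but earlier results of these data were known when it was chosen. Of them, 13 are SR or Tra2 genes and 19 are hnRNP genes. RNA came from retinal ganglion cells (RGCs), the neurons whose axons form the optic nerve, of WT (wild-type) mice of strain C57/6NCrl at 3 ages, namely E18 (embryonic day 18), P5 (postnatal day 5) and Adult (8 weeks). Libraries were made from poly(A)-selected RNA and sequenced in paired reads. Each age has 2 libraries, and the labels name no treatment or allele that differs between them. At every age the cells were isolated by immunopanning on Thy1, a surface protein of RGCs, after macrophages had been depleted; the sample labels also name depletion of amacrine cells, while the series text names macrophages alone. How many animals stand behind a library is not given in the labels, so every p-value measures only the spread between these libraries.

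SR proteins carry stretches rich in arginine and serine and mostly favour the exons they bind, while hnRNPs often oppose exon use and also stabilise, transport and export mRNA. Many of these genes limit their own output through splicing. When the protein is abundant, their pre-mRNA takes in an exon with a premature stop codon, a poison exon, or keeps an intron. Transcripts with such stops are mostly degraded by nonsense-mediated decay (NMD). In neurons, members of both families help to switch exons between developmental and mature forms. Isoform levels are FPKM, fragments scaled to transcript length and to the library's mapped fragments, and a gene's level is the sum over its listed isoforms.

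Each listed isoform that had the same chain of introns as an annotated transcript took that transcript's name and type, and 214 of the 255 member isoforms did. Of these, 105 were protein-coding, 61 were retained-intron transcripts, 24 were NMD transcripts and 24 were processed transcripts without a coding sequence; the other 41 were unannotated variants. The NMD isoforms matched 21 annotated transcripts of 16 genes. In 7 of the 10 such transcripts of SR and Tra2 genes the stop codon lay in an exon that sits inside an intron of the gene's most abundant coding isoform, against 1 of the 11 of hnRNP genes. Of these 7, 4 isoforms fell in Adult against E18, and the stretches below are theirs, chosen for that. The other 3 are Srsf9-205, which was tested and not called, and Srsf4-203 and Srsf11-212, whose means lay under the minimum for a test. Each stretch runs from the first base of that exon to the stop codon, on the transcript strand, and the capitals mark the stop codon. They were read from the annotated transcripts of GENCODE, build GRCm38, which is the mm10 assembly of the deposited values, and lie at chr17:29039454-29039487 (plus strand), chr2:162932815-162932966 (plus strand), chr6:49252965-49253108 (minus strand) and chr16:22259181-22259261 (minus strand).
Srsf3-201: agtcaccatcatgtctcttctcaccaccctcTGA
Srsf6-201: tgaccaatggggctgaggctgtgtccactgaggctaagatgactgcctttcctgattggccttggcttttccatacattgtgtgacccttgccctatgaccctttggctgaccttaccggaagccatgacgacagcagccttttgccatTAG
Tra2a-202: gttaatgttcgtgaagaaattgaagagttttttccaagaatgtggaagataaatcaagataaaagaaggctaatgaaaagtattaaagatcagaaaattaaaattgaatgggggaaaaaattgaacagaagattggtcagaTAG
Tra2b-206: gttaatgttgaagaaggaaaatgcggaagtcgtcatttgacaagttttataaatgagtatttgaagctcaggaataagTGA
The exons that hold these stops are 456, 268, 306 and 276 bases long in the order shown, and are exon 4, exon 3, exon 2 and exon 2 of their transcripts. From the stop codon to the last exon junction the mature transcripts run 548, 534, 964 and 1015 bases. The stretches of Tra2a and Tra2b, which are paralogs, share their first 9 bases; no other pair of the 4 shares its first base.

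The libraries of E18 and P5 were alike and those of Adult stood apart. Over the 14390 tested genes, libraries of one age correlated with Pearson's r of 0.978 (E18), 0.975 (P5) and 0.941 (Adult) on the log2(FPKM + 1) scale. Adult and younger libraries had r of 0.719 to 0.763; genes are not independent replicates. The label of RGCs held least well in Adult. Summed over 15 RGC marker genes, FPKM were 4673 and 5295 (E18), 5038 and 4622 (P5), and 562.5 and 377.5 (Adult), with none of the 15 at 0 in any library. Without Gap43 the other 14 summed to 3351 to 3930 FPKM in the younger libraries and to 529 and 342 FPKM in Adult. Thy1 itself had 161 and 241 FPKM (E18), 391 and 369 FPKM (P5), and 138 and 129 FPKM (Adult). Nefh went the other way from E18, at 3.19 and 4.05 FPKM, to Adult, at 12.7 and 11.7 FPKM. The markers thus fell to unlike degrees. Markers of other retinal cells were higher in Adult: 14 rod markers summed to 6688 and 938 FPKM in Adult, against 353 to 399 FPKM in the younger libraries, where 1 or 2 of them were at 0. Gnb1 alone held 346 to 389 FPKM of the younger sums, and the other 13 rod markers summed to 6271 and 775 FPKM in Adult, against 5.90 to 12.3 FPKM. Likewise 8 amacrine markers summed to 710.0 and 894 FPKM in Adult, against 5.59 to 25.3 FPKM, and 6 Müller glia markers to 771 and 856 FPKM in Adult, against 96.7 to 129.7 FPKM. Without Glul the other 5 Müller markers summed to 154.7 and 154.6 FPKM in Adult, against 0.923 to 4.82 FPKM. E18 replicate 1 also had more of 9 progenitor markers, 121 FPKM in sum against 7.39 to 55.6 FPKM in the other libraries. Rn7sk, a small nuclear RNA, had a listed value of 0 in the younger libraries and took 186777 and 213874 of the 800485 and 854713 FPKM in the Adult libraries. The deposited values hold no counts, and the sequencing depth is therefore unknown.

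The summed level of the 32 genes was 3840 and 3745 FPKM (E18), 2687 and 2732 FPKM (P5), and 2437 and 2342 FPKM (Adult). The E18 libraries were highest, the Adult libraries lowest, and no ages overlapped. As a share of the fragments of protein-coding genes, which leaves out Rn7sk and other small RNAs, the members made up 0.915% and 0.841% (E18), 0.636% and 0.651% (P5), and 0.688% and 0.688% (Adult), so on this measure P5 was lowest. In bulk samples, fewer cells of a type and less RNA per cell cannot be told apart. The 6 members with the highest mean over all libraries were Hnrnpk (319.9 FPKM), Srsf5 (296 FPKM), Hnrnph1 (267 FPKM), Srsf2 (184 FPKM), Hnrnpl (173 FPKM) and Hnrnpa2b1 (173 FPKM). The lowest tested member, Hnrnpa3, had a mean of 13.9 FPKM, as the plot of levels by gene shows. Srsf1, the founding SR protein, had 1 listed isoform, a retained-intron transcript, at 1.05 and 1.04 FPKM (E18), 0.173 and 0.901 FPKM (P5), and 1.53 and 0.0006 FPKM (Adult). Its mean of 0.781 FPKM lay under the minimum of 1 FPKM for a test, and no statement is made on its coding transcript.

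**Figure D1:**
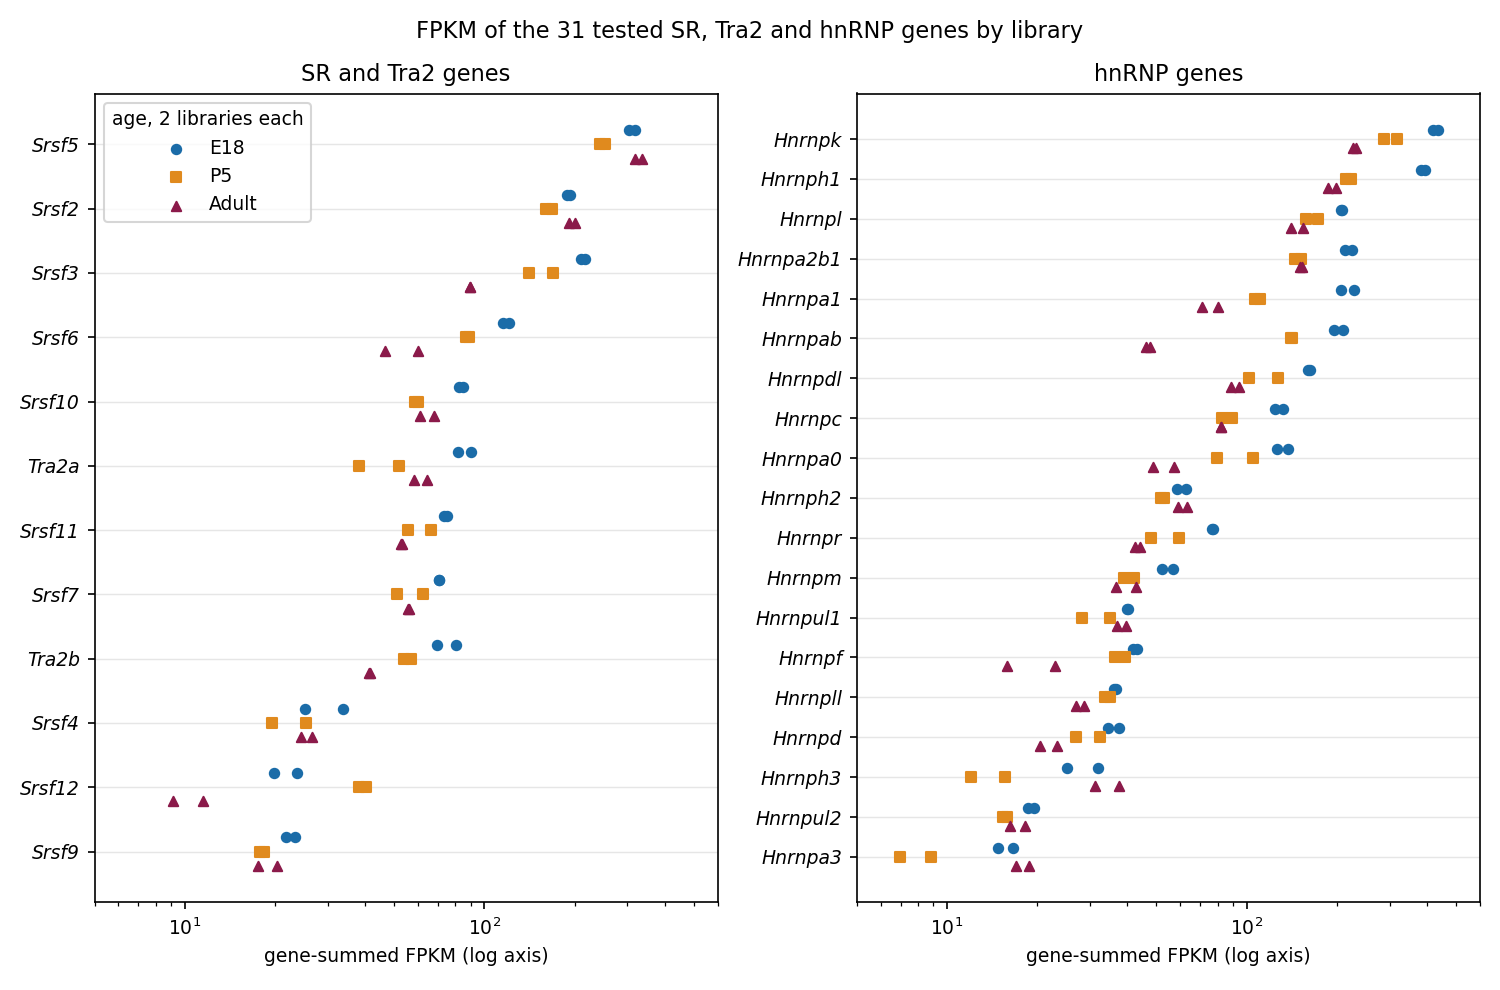
Gene-summed FPKM (log axis) of the 31 tested SR, Tra2 and hnRNP genes in each library of E18, P5 and Adult. Points are single libraries; Hnrnpab sits at 209.6 and 195 FPKM (E18), 141 and 140.4 FPKM (P5), and 46.2 and 47.5 FPKM (Adult), while Srsf12 is highest at P5.

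Levels were compared between ages with limma on log2(FPKM + 1), fitted over all 14390 genes with a mean of at least 1 FPKM, with Benjamini-Hochberg adjustment over all of them and calls at an adjusted p under 0.05. The comparisons share libraries, the P5 libraries between P5 against E18 and Adult against P5, and each is given by its own values. At P5 against E18, 10 of 31 members fell (32.3%) and 1 rose, where 4.95% of all tested genes fell and 5.52% rose. The log2 change was negative for 30 of 31 members, with a median of -0.42 beside -0.03 for all genes, and under the scalings tried the members' median less that of all genes lay between -0.40 and -0.35. The fallers were Tra2a and Srsf10 among 12 SR and Tra2 genes, and Hnrnpa1, Hnrnpa2b1, Hnrnpa3, Hnrnpab, Hnrnpc, Hnrnph1, Hnrnph3 and Hnrnpk among 19 hnRNP genes; the riser was Srsf12. These calls rest on every library: without P5 library a or either E18 replicate, 0 members were called lower (3, 19 and 77 of all genes were). Without P5 library b, 6 were, and without Adult replicate 1 or 2, which set part of the shared spread, 3 were. Srsf12 was called without either Adult library and lost without any of the other 4. Tra2a, Srsf10, Hnrnpab, Hnrnpc, Hnrnph3 and Hnrnpk lost their calls when any one library was left out. The median over members stayed between -0.48 and -0.36 in those fits.

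Adult against P5 divided the members. Here 11 of 31 fell (35.5%) and 5 rose (16.1%), close to the 33.7% and 26.2% of all genes, so the shares say little about these genes as a group. The direction depended on scaling. On TPM, whose total includes Rn7sk, 0 rose and 28 fell, where 11.9% of all genes rose and 59.8% fell. Scaled to protein-coding genes, 12 rose and 5 fell, beside 38.1% and 24.55% of all genes. After quantile normalization 12 rose and 4 fell, beside 26.2% and 31.7%. The median over members was -0.17, against -0.07 for all genes, and 0.15 and 0.22 under the last 2 of these scalings. TPM moved the median of all genes to -0.76 and protein-coding scaling moved it to 0.19; relative to all genes, the members' median was -0.10 as deposited, -0.17 on TPM, -0.03 with protein-coding scaling and 0.28 after quantile normalization. Hnrnpab, Hnrnpf, Srsf12 and Srsf3 were called lower under every scaling. Of the 11 fallers, 9 kept a negative sign under every scaling; Hnrnpk turned to 0.011 after quantile normalization and Hnrnpll to 0.025 with protein-coding scaling. Of the risers Hnrnpa3, Hnrnph3, Srsf2, Srsf5 and Tra2a, none kept its call under every scaling, and Hnrnpa3 and Hnrnph3 alone kept a positive sign. Leaving out a library left 3 or 4 risers; Hnrnpa3, Hnrnph3 and Srsf5 were called without each library in turn.

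Against E18, Adult had 21 of 31 members lower (67.7%) and 0 higher, where 34.4% of all tested genes were lower and 25.3% higher. The median log2 change was -0.49 for members and -0.11 for all genes. Relative to all genes it was -0.38 as deposited, -0.43 on TPM, -0.33 with protein-coding scaling and -0.08 after quantile normalization. With protein-coding scaling 5 members were called higher and 12 lower, beside 39.9% and 23.95% of all genes. After quantile normalization 3 were higher and 12 lower, beside 26.8% and 32.7%. Called lower under every scaling were 11 members: Srsf3, Srsf6, Srsf12, Tra2b, Hnrnpa0, Hnrnpa1, Hnrnpab, Hnrnpf, Hnrnph1, Hnrnpk and Hnrnpr. A negative sign under every scaling was kept by 19 of the 21; Hnrnpl and Hnrnpa2b1 turned to 0.059 and 0.0445 after quantile normalization. Between 16 and 22 members were lower when any one library was left out, and 16 of the 21 were lower every time. The Adult libraries also differed in their cell markers. Against P5, 14 of 15 RGC markers were lower, and 13 of 14 rod, 7 of 7 amacrine, 7 of 7 bipolar and 6 of 6 Müller markers that could be tested were higher. Their part in the changes of the members in Adult was not tested.

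**Figure D2:**
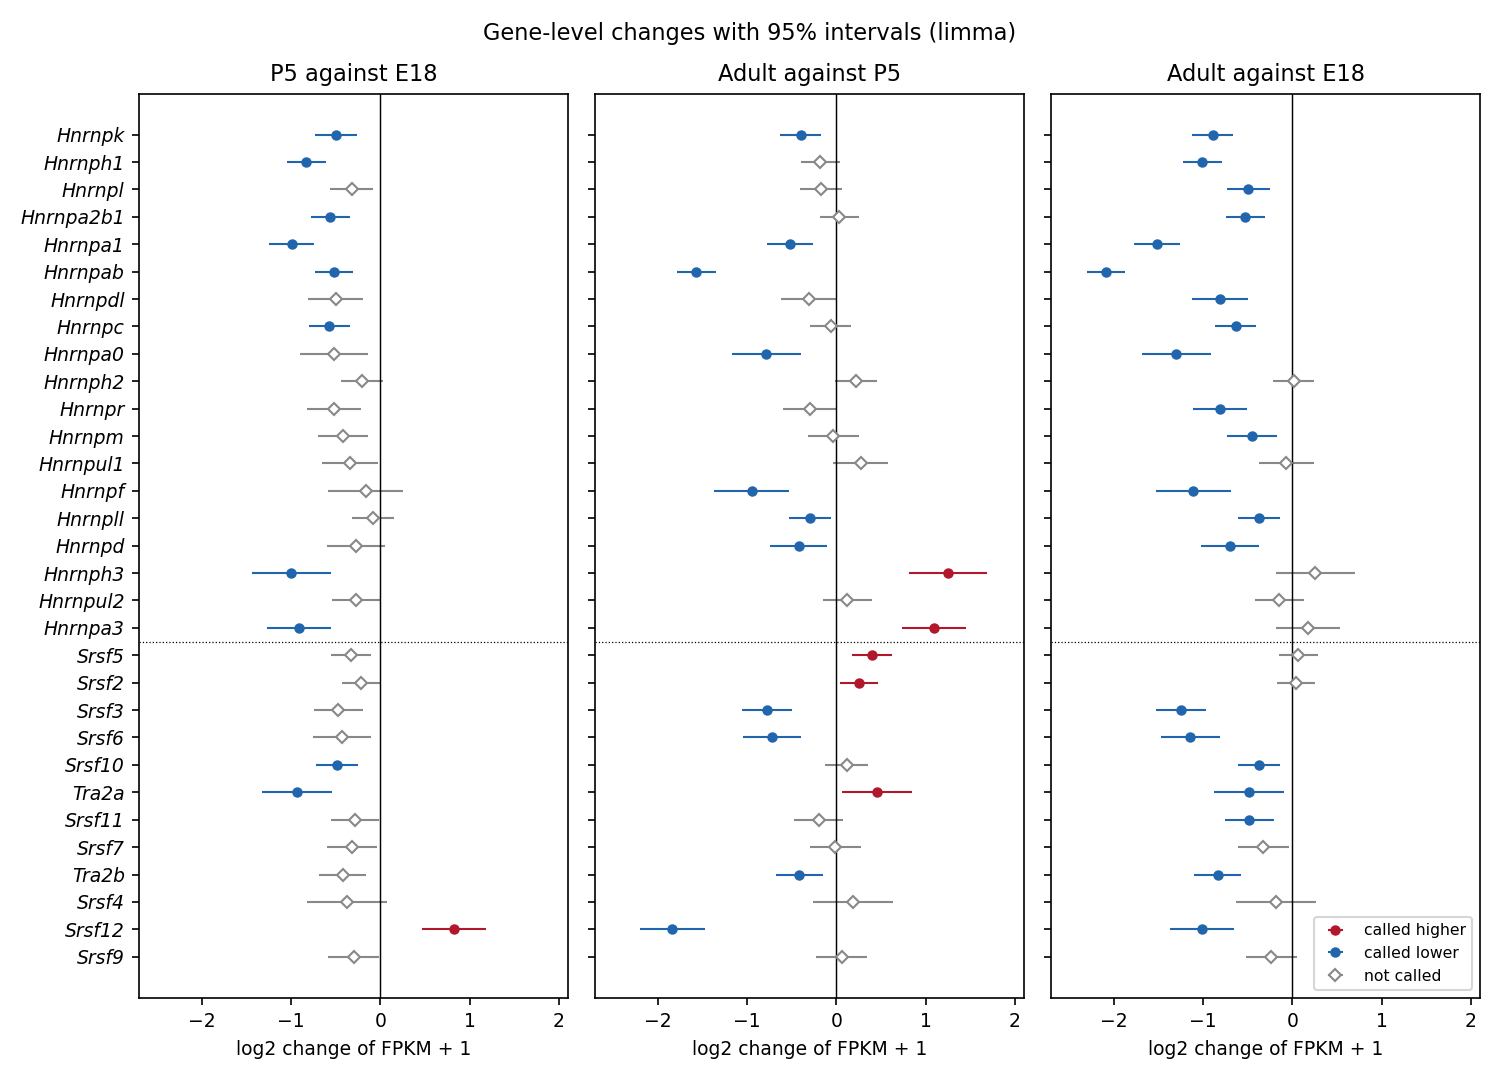
Log2 change of each tested member, from limma on log2(FPKM + 1), in one panel per comparison of ages; bars are 95% intervals. Nearly all points lie below 0 for P5 against E18 (30 of 31), where the median was -0.42 for members and -0.03 for all genes. Adult against P5 has members on both sides. That split turned to 0 higher and 28 lower on TPM, where 11.9% of all genes were higher and 59.8% lower. With protein-coding scaling it was 12 higher and 5 lower, beside 38.1% and 24.55% of all genes.

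Among the SR proteins that promote exon use, Srsf3 had the clearest decline. Srsf3, the smallest SR protein and also an mRNA export adaptor, was at 217 and 211 FPKM (E18), 140.4 and 169 FPKM (P5), and 89.5 and 89.5 FPKM (Adult). No ages overlapped, and the Adult libraries lay close together. It fell 2.39-fold in Adult against E18 (log2 change -1.25, SE 0.11, limma adjusted p = 0.000238) and 1.73-fold against P5 (log2 change -0.78, SE 0.11, limma adjusted p = 0.00168). The difference of P5 from E18 missed the threshold (log2 change -0.47, SE 0.11, limma adjusted p = 0.0521). Srsf6, a regulator of tau exon choice, had 121 and 116 FPKM (E18), 86.7 and 89.1 FPKM (P5), and 60.2 and 46.7 FPKM (Adult), again with no overlap. It fell in Adult against E18 (log2 change -1.14, SE 0.13, limma adjusted p = 0.000651) and against P5 (log2 change -0.72, SE 0.13, limma adjusted p = 0.00454).

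Srsf5 and Srsf2, the SR genes with the highest levels, behaved otherwise. Srsf5, which binds exonic enhancers, had 305 and 319 FPKM (E18), 253 and 243 FPKM (P5), and 337 and 318 FPKM (Adult), so P5 was lowest and the other ages overlapped. Its P5 level differed from E18 by a log2 of -0.33 without passing the test (limma adjusted p = 0.0723). In Adult it rose against P5 (log2 change 0.40, SE 0.09, limma adjusted p = 0.0104), a change that TPM turned to -0.35. Srsf2, known as SC35, a marker protein of nuclear speckles, had 192 and 189 FPKM (E18), 160.3 and 168 FPKM (P5), and 200.4 and 192 FPKM (Adult). It was called higher in Adult than at P5 (log2 change 0.26, SE 0.09, limma adjusted p = 0.0452), a call lost when any one library was left out (limma adjusted p = 0.0575 to 0.114), and 1 unannotated isoform carried the difference. With annotated isoforms only, the log2 change was -0.32 against P5 (limma adjusted p = 0.0721) and -0.53 against E18 (limma adjusted p = 0.0122).

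The Tra2 proteins bind purine-rich enhancers and activate exons together with SR proteins. Tra2a had 90.1 and 81.7 FPKM (E18), 51.8 and 38.0 FPKM (P5), and 64.2 and 58.2 FPKM (Adult): E18 was highest and P5 lowest, with no overlap. It fell 1.91-fold at P5 against E18 (log2 change -0.93, SE 0.16, limma adjusted p = 0.0241), a call lost when any one library was left out. It was called higher in Adult than at P5 (log2 change 0.45, SE 0.16, limma adjusted p = 0.0494), a call not kept under every scaling and lost without any library but P5 library a (highest limma adjusted p = 0.201). Its lower level in Adult than at E18 (log2 change -0.48, SE 0.16, limma adjusted p = 0.04) was lost without either E18 or either Adult library (highest limma adjusted p = 0.179). Tra2b, known for its action on exon inclusion in the human SMN genes, had 80.3 and 69.5 FPKM (E18), 54.0 and 57.1 FPKM (P5), and 41.2 and 41.6 FPKM (Adult), each age below the one before it. It fell in Adult against E18 (log2 change -0.84, SE 0.11, limma adjusted p = 0.000923) and against P5 (log2 change -0.41, SE 0.11, limma adjusted p = 0.0165), while P5 against E18 missed the threshold (limma adjusted p = 0.0588). The call against P5 was lost without P5 library b or either Adult library (highest limma adjusted p = 0.0607).

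Srsf10 and Srsf12 are SR-like proteins known as repressors of splicing, Srsf10 in its dephosphorylated form and Srsf12 from work on the human protein. Srsf10 had 84.5 and 82.2 FPKM (E18), 58.8 and 59.9 FPKM (P5), and 67.9 and 61.0 FPKM (Adult). The E18 libraries were above all others. The level fell at P5 against E18 (log2 change -0.48, SE 0.10, limma adjusted p = 0.0336), a call lost when any one library was left out. Its call in Adult against E18 was lost without either E18 library or Adult replicate 2 (highest limma adjusted p = 0.0939). Srsf12 was the one member with a peak at P5: it had 19.8 and 23.6 FPKM (E18), 38.1 and 40.2 FPKM (P5), and 9.12 and 11.5 FPKM (Adult). It rose 1.80-fold at P5 against E18 (log2 change 0.82, SE 0.15, limma adjusted p = 0.0264). It fell 3.80-fold in Adult against P5 (log2 change -1.84, SE 0.15, limma adjusted p = 0.000183) and was 2.11-fold lower in Adult than at E18 (log2 change -1.01, SE 0.15, limma adjusted p = 0.0016). All 3 calls held under every scaling. The remaining SR genes Srsf4, Srsf7, Srsf9 and Srsf11 had age means of 18.1 to 74.3 FPKM, and were called in neither comparison with P5. Of these 4, Srsf11, a partner of neuronal microexon splicing, alone was lower in Adult than at E18 (log2 change -0.48, SE 0.11, limma adjusted p = 0.0109), a call lost without either E18 library (highest limma adjusted p = 0.0649).

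Among the hnRNPs of the A and B group, which bind exonic and intronic silencers and carry mRNA to neurites, Hnrnpab and Hnrnpa1 declined most. Hnrnpab, a carrier of mRNA granules, had 209.6 and 195 FPKM (E18), 141 and 140.4 FPKM (P5), and 46.2 and 47.5 FPKM (Adult), with libraries of an age close together and no overlap between ages. It fell 4.32-fold in Adult against E18 (log2 change -2.09, SE 0.09, limma adjusted p = 2.49e-05) and 3.01-fold against P5 (log2 change -1.57, SE 0.09, limma adjusted p = 7.07e-05). The fall was 1.44-fold at P5 against E18 (log2 change -0.52, SE 0.09, limma adjusted p = 0.0245). Hnrnpa1, the prototype exon silencer, had 228 and 207 FPKM (E18), 107 and 111 FPKM (P5), and 80.1 and 70.9 FPKM (Adult). It fell 2.004-fold at P5 against E18 (log2 change -0.99, SE 0.11, limma adjusted p = 0.00958) and 2.88-fold in Adult against E18 (log2 change -1.52, SE 0.11, limma adjusted p = 9.42e-05). No ages overlapped.

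Hnrnpa2b1, which recognises transport signals in mRNA, had 225 and 213 FPKM (E18), 152 and 145 FPKM (P5), and 153 and 150.4 FPKM (Adult). It fell at P5 against E18 (log2 change -0.56, SE 0.09, limma adjusted p = 0.0212), and Adult and P5 overlapped. Hnrnpa3 had 16.7 and 14.8 FPKM (E18), 6.99 and 8.82 FPKM (P5), and 17.0 and 18.8 FPKM (Adult), lowest at P5 in every library. It fell 1.99-fold at P5 against E18 (log2 change -0.91, SE 0.15, limma adjusted p = 0.0212). It was called 2.27-fold higher in Adult than at P5 (log2 change 1.09, SE 0.15, limma adjusted p = 0.00122). Adult against E18 missed the threshold (limma adjusted p = 0.325, 95% interval -0.18 to 0.54 on the log2 scale). Hnrnpa0, an intronless member that binds AU-rich elements, had 1 isoform and fell in Adult against E18 (log2 change -1.30, SE 0.16, limma adjusted p = 0.000754), with both Adult libraries below all others.

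The hnRNPs F and H bind runs of G. Hnrnph1 had 395 and 383 FPKM (E18), 223 and 214 FPKM (P5), and 199 and 187 FPKM (Adult), the E18 libraries far above the rest. It fell 1.78-fold at P5 against E18 (log2 change -0.83, SE 0.09, limma adjusted p = 0.00978) and 2.02-fold in Adult against E18 (log2 change -1.01, SE 0.09, limma adjusted p = 0.000226). Hnrnph3 had 32.0 and 25.2 FPKM (E18), 12.1 and 15.6 FPKM (P5), and 37.4 and 31.1 FPKM (Adult): P5 was lowest, and Adult and E18 overlapped. It fell at P5 against E18 (log2 change -0.996, SE 0.18, limma adjusted p = 0.0274) and was called 2.47-fold higher in Adult than at P5 (log2 change 1.252, SE 0.18, limma adjusted p = 0.00163). Hnrnpf had 43.1 and 41.7 FPKM (E18), 39.3 and 36.3 FPKM (P5), and 22.9 and 15.9 FPKM (Adult). It fell in Adult against P5 (log2 change -0.95, SE 0.17, limma adjusted p = 0.00407), both Adult libraries being below all others. Hnrnph2 ranged from 51.7 to 63.2 FPKM and was called in no comparison.

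Hnrnpk, which binds C-rich RNA and DNA, had 418 and 436 FPKM (E18), 318 and 288 FPKM (P5), and 232 and 227 FPKM (Adult), each age below the one before it. It fell at P5 against E18 (log2 change -0.49, SE 0.10, limma adjusted p = 0.0316) and in Adult against E18 (log2 change -0.89, SE 0.10, limma adjusted p = 0.00045). Hnrnpl, a binder of CA repeats, fell by 0.49 on the log2 scale in Adult against E18 (limma adjusted p = 0.00579), with a sign that turned after quantile normalization (0.059, limma adjusted p = 0.624). Hnrnpr, which carries actin mRNA into axons of motor neurons, fell by 0.81 on the log2 scale in that comparison (limma adjusted p = 0.00195). Also lower in Adult than at E18 were Hnrnpc, a binder of U tracts, Hnrnpd and Hnrnpdl, which act on AU-rich mRNA, Hnrnpll, first known from splicing in T cells, and Hnrnpm, with log2 changes between -0.81 and -0.38. Hnrnpll and Hnrnpm lost this call without either E18 library or Adult replicate 2 (highest limma adjusted p = 0.0921 and 0.103). Hnrnpul1 and Hnrnpul2, which also act in DNA repair, were called in no comparison and stayed within 15.4 to 40.2 FPKM.

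The mix of isoforms was first described by the minor share, the percent of a gene's summed FPKM in isoforms other than its most abundant one over the 6 libraries. The share was tested with limma over 8557 genes, of which 28 are members; Srsf7, Hnrnpa0 and Hnrnpul2 have 1 isoform, and Srsf1 is too low. For P5 against E18, limma called 0 of 28 members and 0% of all genes, with 2 members and 1093 genes at an unadjusted p under 0.05. The members with the smallest p were Hnrnpa3 (-8.73 percentage points, SE 2.21, limma adjusted p = 0.25) and Srsf3 (-12.7 percentage points, SE 3.62, limma adjusted p = 0.279). Next came Tra2b (-9.40 percentage points, SE 4.24, limma adjusted p = 0.428) and Srsf5 (-9.77 percentage points, SE 4.44, limma adjusted p = 0.432). In Adult against P5 the share was higher in 5 of 28 members (17.9%) and lower in 0, where 14.9% of all genes were higher and 7.63% lower. Against E18 it was higher in 4 and lower in 1 (14.3% and 3.57%), beside 11.3% and 7.63% of all genes. In number the members were near the background. Leaving out a library changed these counts: without either E18 library 1 was left against P5 and 0 against E18, without P5 library a 0 and 4, without P5 library b 2 and 4, without Adult replicate 1 both counts were 2, and without Adult replicate 2 both were 3.

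Hnrnpa1 had minor shares of 28.8 and 30.5% (E18), 24.8 and 29.0% (P5), and 54.0 and 55.1% (Adult). Both Adult libraries were far above the younger ones, and the share rose in Adult against P5 (27.7 percentage points, SE 3.91, limma adjusted p = 0.0116) and against E18 (24.9 percentage points, SE 3.91, limma adjusted p = 0.0166). Hnrnpr had 51.4 and 48.9% (E18), 42.6 and 46.8% (P5), and 66.2 and 72.1% (Adult). Adult was again on top, with a rise against P5 (24.4 percentage points, SE 3.91, limma adjusted p = 0.0155) and against E18 (18.9 percentage points, SE 3.91, limma adjusted p = 0.0305). Hnrnpl had 78.0 and 73.8% (E18), 72.2 and 71.5% (P5), and 86.4 and 86.5% (Adult). It rose in Adult against P5 (14.6 percentage points, SE 2.81, limma adjusted p = 0.0227) and missed the threshold against E18 (limma adjusted p = 0.0547). For Hnrnph2 the share was 54.2 and 44.1% (E18), 41.2 and 57.1% (P5), and 78.4 and 77.3% (Adult), with the younger ages overlapping and Adult above them (28.7 percentage points, SE 6.46, limma adjusted p = 0.0369 against E18). The main coding isoform Hnrnph2-203 was lower in Adult than at E18 (log2 change -1.12, SE 0.21, limma adjusted p = 0.00856). Another coding isoform, Hnrnph2-202, was higher (log2 change 1.66, SE 0.41, limma adjusted p = 0.0212), while the gene's sum had a log2 change of 0.01 (95% interval -0.22 to 0.25). The call of Hnrnph2-203 was lost without E18 replicate 2 or Adult replicate 1, and that of Hnrnph2-202 without E18 replicate 1 or either Adult library (highest limma adjusted p = 0.0631 and 0.111); the call of Hnrnph2-202 was also lost on TPM (limma adjusted p = 0.0665). Srsf11 had 67.0 and 64.2% (E18), 65.8 and 62.5% (P5), and 78.9 and 76.9% (Adult), higher in Adult against P5 (13.7 percentage points, SE 3.08, limma adjusted p = 0.0325). Srsf5 moved the other way in Adult against E18 (-19.5 percentage points, SE 4.44, limma adjusted p = 0.038), a sign set by which isoform is taken as most abundant: with the isoform highest at E18 the change was 14.5 percentage points.

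The second measure was the non-coding share, the percent of the FPKM of a gene's annotated isoforms that is in isoforms not coding for the full protein (NMD, retained intron or processed transcript). Unannotated variants are in neither part of this share, unlike the minor share. It was tested over 6272 genes, of which 24 are members. Again P5 against E18 had 0 calls among members and 0% among all genes, with 5 members and 985 genes at an unadjusted p under 0.05. Smallest in p were Hnrnpul1 (-5.08 percentage points, SE 1.09, limma adjusted p = 0.166) and Srsf3 (-12.5 percentage points, SE 3.55, limma adjusted p = 0.217), followed by Hnrnpdl (-10.2 percentage points, SE 3.23, limma adjusted p = 0.248) and Hnrnpa3 (-5.62 percentage points, SE 1.95, limma adjusted p = 0.278). In Adult against P5, 7 of 24 members were called (29.2%), beside 20.2% of all genes. Of the 7 members, 5 were higher (Hnrnpl, Hnrnpa2b1, Hnrnpa1, Hnrnpm and Srsf11) and 2 lower (Hnrnph3 and Srsf2). These are 20.8% and 8.33% of members, beside 14.5% and 5.72% of all genes, which also leaned towards higher shares. In Adult against E18, 5 were called (20.8%), beside 17.9%. Hnrnpl, Hnrnpa2b1 and Hnrnpa1 were higher and Hnrnph3 and Srsf2 lower (12.5% and 8.33%, beside 10.3% and 7.6% of all genes). With all listed isoforms in the denominator, a choice added after the data had been seen, Hnrnpl, Hnrnpa1, Hnrnph3 and Srsf2 were called in both comparisons and Hnrnpm against P5, while Hnrnpa2b1 and Srsf11 were not called. Leaving out a library in turn left 0 to 5 and 0 to 3 calls. Without E18 replicate 1 or 2, 1 call was left against P5 and 0 against E18, and without P5 library a or b, 0 were left against P5 and 2 against E18. Without Adult replicate 1 the counts were 5 and 3, and without Adult replicate 2 they were 4 and 2.

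**Figure D3:**
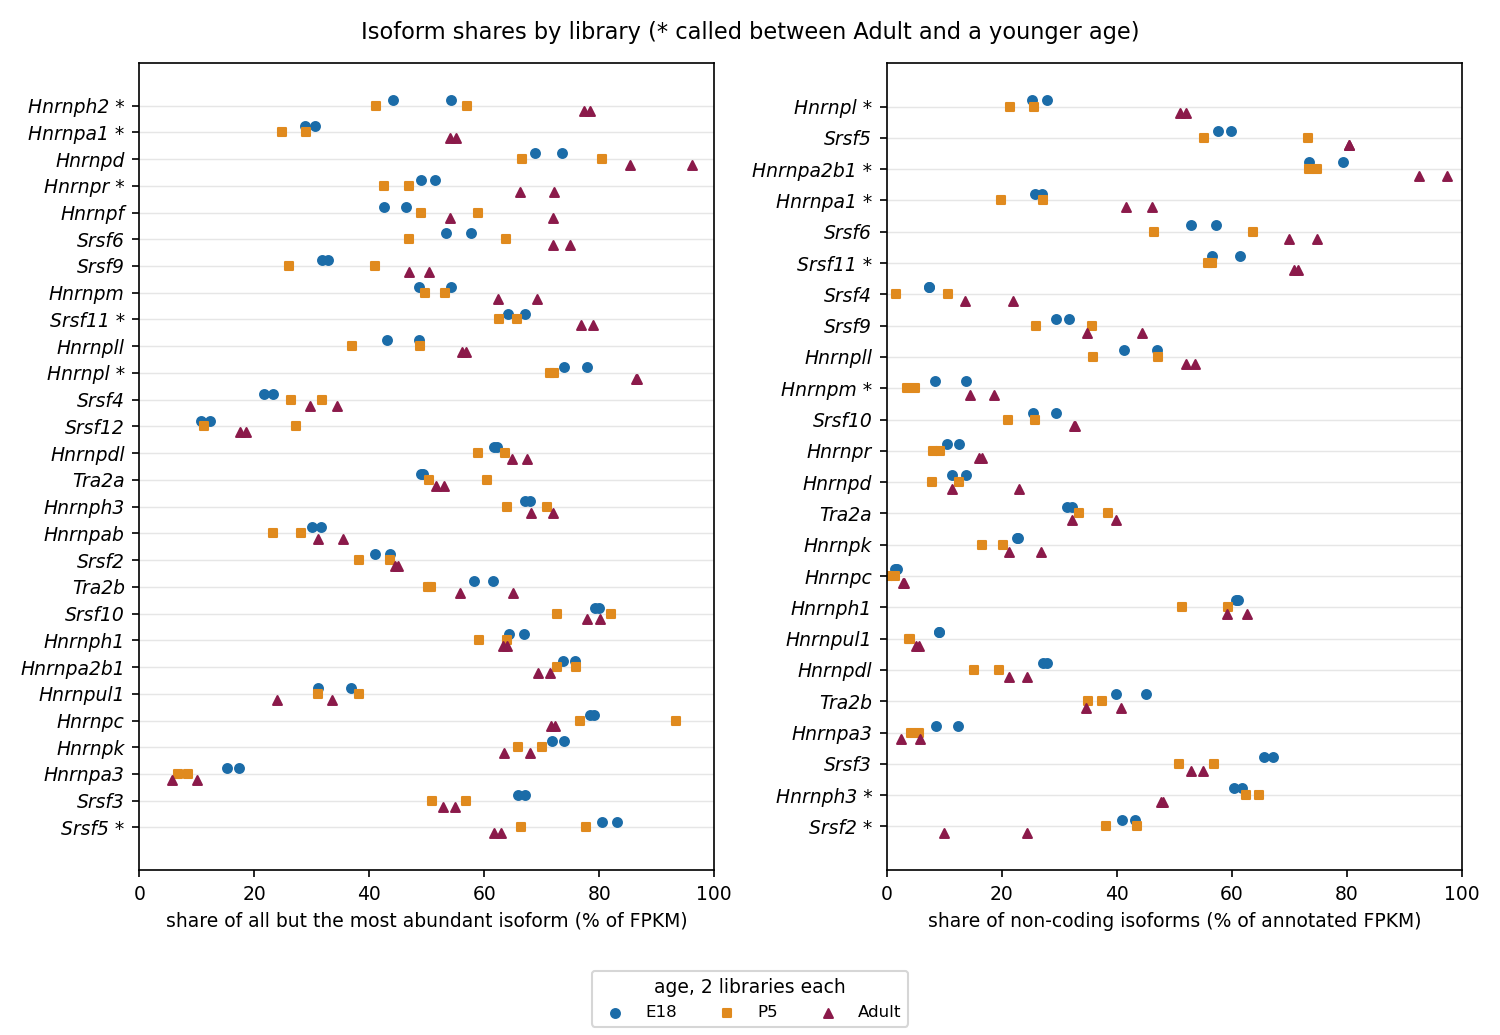
Minor isoform share (28 genes, in percent of the FPKM of all listed isoforms) and non-coding isoform share (24 genes, in percent of the FPKM of annotated isoforms), in each library by age, ordered by the change in Adult against E18; asterisks mark genes called by limma in any comparison. Hnrnpl and Hnrnpa2b1 have non-coding shares of 52.0% and 50.9%, and 92.6% and 97.5%, in the Adult libraries, above all younger libraries; of the FPKM of all listed isoforms the Hnrnpa2b1 values are 67.2% and 72.5%.

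Hnrnpl had non-coding shares of 27.9 and 25.3% (E18), 21.4 and 25.6% (P5), and 52.0 and 50.9% (Adult). Adult stood above all younger libraries (24.9 percentage points, SE 3.36, limma adjusted p = 0.0145 against E18). Its 5 coding isoforms summed to 145 and 151 FPKM (E18), 135 and 116 FPKM (P5), and 72.4 and 67.7 FPKM (Adult). Its 5 retained-intron isoforms summed to 56.3 and 51.1 FPKM (E18), 36.6 and 39.9 FPKM (P5), and 78.4 and 70.2 FPKM (Adult). In Adult the coding sum was lowest and the retained-intron sum highest. Of all tested retained-intron isoforms, 18.97% were higher and 11.46% lower in Adult against P5, beside 19.55% and 29.76% of all coding isoforms. Against E18 these shares were 14.36% and 20.48%, beside 20.01% and 30.07%. Whether Hnrnpl differed from this background was not tested. One coding isoform, Hnrnpl-204, was at 28.3 and 25.4 FPKM (E18) and 32.1 and 20.3 FPKM (P5) and was listed at 0 in both Adult libraries. Hnrnpa2b1 had shares of 79.3 and 73.4% (E18), 73.4 and 74.8% (P5), and 92.6 and 97.5% (Adult), with Adult again on top (18.7 percentage points, SE 3.45, limma adjusted p = 0.0256 against E18). This call rests on leaving out unannotated variants: of all listed isoforms its non-coding ones held 65.4 and 62.0% (E18), 64.5 and 63.6% (P5), and 67.2 and 72.5% (Adult), which did not pass the test (6.19 percentage points, SE 3.30, limma adjusted p = 0.237 against E18). Its 4 coding isoforms summed to 38.5 and 47.7 FPKM (E18), 35.6 and 31.1 FPKM (P5), and 8.22 and 2.80 FPKM (Adult). Its 4 retained-intron isoforms summed to 146 and 132 FPKM (E18), 96.9 and 90.5 FPKM (P5), and 103 and 109 FPKM (Adult). The coding isoforms Hnrnpa2b1-204 and Hnrnpa2b1-210 were both listed at 0 in the Adult libraries; Hnrnpa2b1-204 had 20.8 and 27.1 FPKM (E18) and 20.3 and 20.8 FPKM (P5). A listed 0 may be a failed estimate of one isoform among overlapping ones, and Hnrnpa2b1's gene sum in Adult, 152.9 and 150.4 FPKM, was not low.

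Hnrnpa1 had non-coding shares of 25.8 and 26.9% (E18), 19.9 and 27.2% (P5), and 41.6 and 46.2% (Adult), all of it in 2 NMD isoforms. Its coding sum was 168 and 151 FPKM (E18), 85.2 and 79.6 FPKM (P5), and 46.6 and 38.1 FPKM (Adult), lower at each later age without overlap. Its NMD sum was 58.3 and 55.6 FPKM (E18), 21.2 and 29.7 FPKM (P5), and 33.2 and 32.8 FPKM (Adult). The larger share in Adult (17.5 percentage points, SE 3.95, limma adjusted p = 0.0378 against E18; the same values tested as NMD shares over fewer genes had limma adjusted p = 0.0612) came with a coding sum and an NMD sum that were both below those at E18, the coding sum by more. Hnrnph3 had 61.7 and 60.4% (E18), 62.5 and 64.7% (P5), and 47.8 and 48.0% (Adult), lower in Adult than at E18 (-13.2 percentage points, SE 3.05, limma adjusted p = 0.0399). Srsf2 had 40.9 and 43.2% (E18), 43.5 and 38.1% (P5), and 24.3 and 9.89% (Adult); the Adult libraries lay below all others and far from each other (-25.0 percentage points, SE 5.55, limma adjusted p = 0.0366 against E18). Of all listed isoforms, Srsf2's non-coding ones held 40.8 and 43.0% (E18), 43.4 and 38.0% (P5), and 17.9 and 6.03% (Adult). Its coding isoform Srsf2-201 had 113 and 107 FPKM (E18), 90.4 and 104 FPKM (P5), and 111 and 106 FPKM (Adult) and was called in no comparison. Srsf2's 1 retained-intron isoform had 44.7 and 49.5 FPKM (E18), 52.2 and 44.6 FPKM (P5), and 23.1 and 0.0059 FPKM (Adult). The Adult libraries were thus far apart in it. The 2 NMD isoforms summed to 33.8 and 31.7 FPKM (E18), 17.4 and 19.3 FPKM (P5), and 12.7 and 11.6 FPKM (Adult). One of them, Srsf2-204, had 21.8 and 20.8 FPKM (E18), 11.7 and 15.0 FPKM (P5), and 0.366 and 1.73 FPKM (Adult). It fell in Adult against E18 (log2 change -3.53, SE 0.34, limma adjusted p = 0.000834). Most of the NMD sum in Adult was in the other. An unannotated variant of Srsf2-202 had 0.271 and 0.973 FPKM (E18), 0.274 and 0.466 FPKM (P5), and 53.3 and 75.0 FPKM (Adult), and it is this isoform that lifted the gene's sum in Adult. The deposited locus of Srsf2 spans 38204 bases, against 3194 bases of the annotated gene, and also holds the coding genes Jmjd6, Mettl23 and Mfsd11, so the origin of that variant's fragments is uncertain. Mettl23 and Mfsd11 overlap the annotated gene as well, so the annotated isoforms of Srsf2 are not free of overlap.

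On the deposited values, most tested NMD isoforms of SR and Tra2 genes fell in Adult against E18. At isoform level limma tested 34941 isoforms, 202 of them of members. Of the other scalings, TPM alone was applied to isoforms. How protein-coding scaling or quantile normalization would move these calls was not tested. On TPM the median log2 change over all genes was -0.68 in Adult against E18. At P5 against E18, 13 member isoforms fell (6.44%) and 0 rose, beside 0.824% and 0.804% of all isoforms; 0 were called in any fit that left out a library. In Adult against P5, 39 were higher (19.3%) and 42 lower (20.8%), beside 19.2% and 24.1%, and in Adult against E18, 15 were higher (7.43%) and 76 lower (37.6%), beside 17.9% and 26.8%. Of SR and Tra2 genes, 8 NMD entries were tested, which are 7 transcripts since Srsf6-201 is listed under 2 entries. In Adult against E18, 6 entries of 5 transcripts fell and 0 rose, with a median log2 change of -1.67 over the entries. The 21 tested coding isoforms of the same genes had 8 lower, 0 higher and a median of -0.57. Over all 1253 tested NMD isoforms, 300 (23.9%) were lower and 158 (12.6%) higher, with a median of -0.28. Of all 18952 tested coding isoforms, 30.07% were lower and 20.01% higher in Adult against E18. The 8 tested NMD isoforms of hnRNP genes had 1 lower, 0 higher and a median of -0.26, beside 29 lower and 6 higher of their 66 coding isoforms (median -0.69). Whether NMD and coding isoforms differed as groups was not tested.

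**Figure D4:**
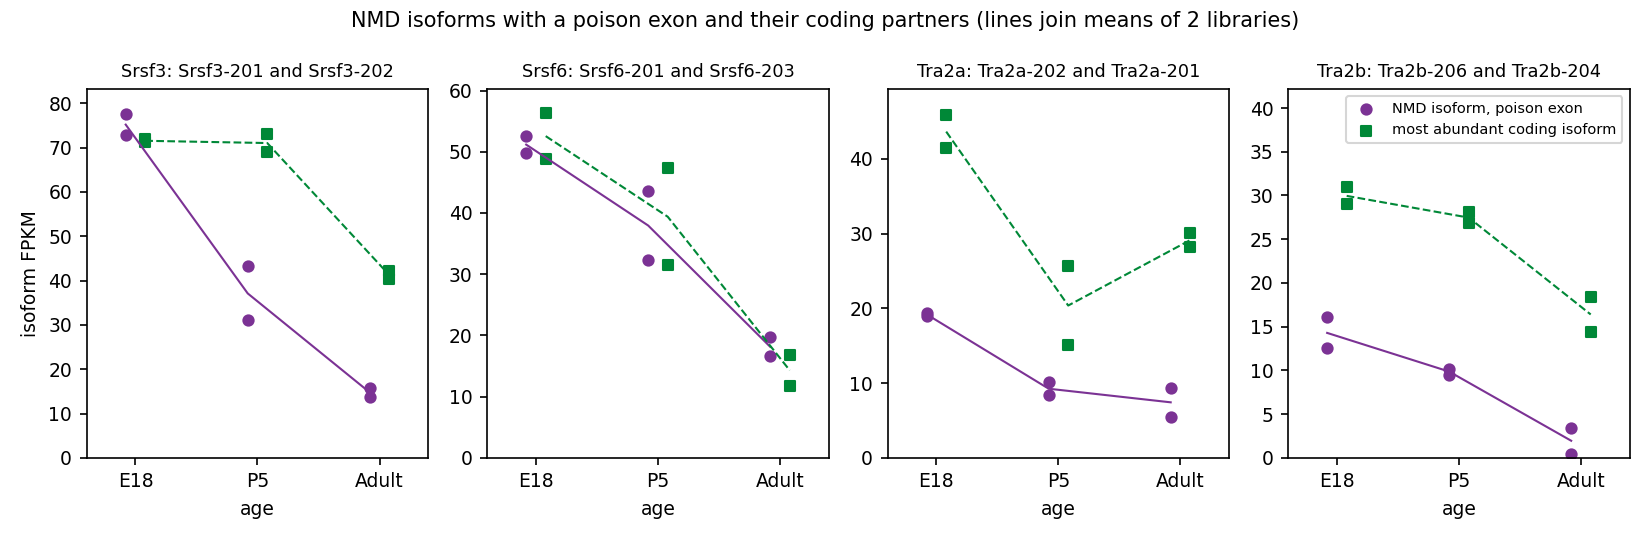
FPKM of the NMD isoform and of the most abundant coding isoform of Srsf3, Srsf6, Tra2a and Tra2b by age; points are libraries and lines join the means of each age, and the NMD value of Srsf6 is the sum of 2 entries. For Srsf3 the NMD isoform is slightly above the coding isoform at E18 and lies below it at P5 and in Adult, where its libraries have 15.9 and 13.7 FPKM.

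Srsf3-201, the NMD isoform whose stop is printed above, had 77.6 and 72.8 FPKM (E18), 30.99 and 43.2 FPKM (P5), and 15.9 and 13.7 FPKM (Adult). The ages did not overlap, and it fell in Adult against E18 (log2 change -2.28, SE 0.18, limma adjusted p = 0.000504) and against P5 (log2 change -1.26, SE 0.18, limma adjusted p = 0.00353), also without each library in turn. The coding isoform Srsf3-202 had 71.2 and 71.8 FPKM (E18), 69.0 and 73.0 FPKM (P5), and 40.3 and 42.2 FPKM (Adult): E18 and P5 overlapped, and Adult was lower than E18 (log2 change -0.78, SE 0.10, limma adjusted p = 0.00224). For P5 against E18 the coding isoform had a log2 change of -0.01. Among NMD and coding isoforms alone, a share added after the data had been seen, Srsf3 had an NMD share of 52.1 and 50.3% (E18), 30.99 and 37.2% (P5), and 28.2 and 24.5% (Adult). It fell in Adult against E18 (-24.9 percentage points, SE 4.17, limma adjusted p = 0.0318), the one call among 16 members, beside 10.4% of 1453 genes. Leaving out any one library raised its limma adjusted p above the threshold, to between 0.0523 and 0.189. Against P5 the one call was a rise for Hnrnpa1 (limma adjusted p = 0.0418), beside 13.9% of all genes. P5 against E18 had 0 calls among members and 0% among all genes, with 1 member and 130 genes at an unadjusted p under 0.05.

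For Srsf6 the deposited table lists the NMD transcript Srsf6-201 under 2 entries of different length. The entry of 1666 bases, the annotated length, had 29.0 and 26.5 FPKM (E18), 28.9 and 14.1 FPKM (P5), and 7.02 and 5.02 FPKM (Adult). This entry fell in Adult against E18 (log2 change -2.05, SE 0.34, limma adjusted p = 0.00511), also without each library in turn. The longer entry, of 3795 bases, had 20.8 and 26.1 FPKM (E18), 14.7 and 18.2 FPKM (P5), and 12.7 and 11.6 FPKM (Adult) and fell less (log2 change -0.89, SE 0.17, limma adjusted p = 0.00903). The coding isoform Srsf6-203 had 56.3 and 48.8 FPKM (E18), 31.4 and 47.3 FPKM (P5), and 16.8 and 11.7 FPKM (Adult), and fell as well (log2 change -1.83, SE 0.25, limma adjusted p = 0.00275). The NMD share of Srsf6 had overlapping ages, at 46.7 and 51.5% (E18), 58.1 and 40.4% (P5), and 52.1 and 58.6% (Adult).

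Tra2a-202, with its stop in exon 2, had 19.0 and 19.4 FPKM (E18), 10.1 and 8.36 FPKM (P5), and 9.38 and 5.47 FPKM (Adult). The isoform fell in Adult against E18 (log2 change -1.30, SE 0.25, limma adjusted p = 0.00832). The coding isoform Tra2a-201, at 45.9 and 41.4 FPKM (E18), 25.7 and 15.0 FPKM (P5), and 30.1 and 28.1 FPKM (Adult), was called in no comparison. Tra2b-206 had 16.1 and 12.5 FPKM (E18), 9.52 and 10.2 FPKM (P5), and 3.46 and 0.445 FPKM (Adult). Its level fell in Adult against E18 (log2 change -2.58, SE 0.50, limma adjusted p = 0.0094). The Adult libraries were far apart from each other but both below all younger ones. The coding isoform Tra2b-204 had 30.9 and 29.0 FPKM (E18), 26.9 and 28.1 FPKM (P5), and 14.4 and 18.3 FPKM (Adult) and fell less (log2 change -0.84, SE 0.15, limma adjusted p = 0.00652). The NMD shares of Tra2b, 28.6 and 25.3% (E18), 22.6 and 23.0% (P5), and 13.5 and 1.68% (Adult), did not pass the test in Adult against E18 (limma adjusted p = 0.063). Without E18 replicate 1 or 2, the call of Tra2a-202 was lost (limma adjusted p = 0.0546 and 0.0597), as was that of Tra2b-206 (limma adjusted p = 0.0658 and 0.0513). The longer entry of Srsf6-201 lost its call without E18 replicate 2 or Adult replicate 2 (limma adjusted p = 0.068 and 0.0512), and Tra2b-204 without E18 replicate 1 (limma adjusted p = 0.0526).

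Not every non-coding isoform was lower in Adult. Srsf9-205, an NMD isoform with its stop in an exon of the same kind, had 3.51 and 2.57 FPKM (E18), 0 and 3.08 FPKM (P5), and 4.56 and 6.12 FPKM (Adult), with both Adult libraries above all others. It passed the test neither against E18 (log2 change 0.65, SE 0.63, limma adjusted p = 0.433) nor against P5 (log2 change 1.64, SE 0.63, limma adjusted p = 0.0817). Its NMD share was 18.6 and 13.9% (E18), 0.004 and 18.4% (P5), and 28.7 and 34.8% (Adult), and the difference of Adult from P5 missed the threshold (22.6 percentage points, SE 6.83, limma adjusted p = 0.0876). Srsf5-212, a retained-intron isoform, had 51.6 and 62.2 FPKM (E18), 85.3 and 54.1 FPKM (P5), and 129 and 118 FPKM (Adult). It was called higher in Adult than at E18 (log2 change 1.11, SE 0.23, limma adjusted p = 0.0111), a call lost on TPM and without E18 replicate 1 or either Adult library (highest limma adjusted p 0.075). The coding isoform Srsf5-201 had 83.2 and 79.4 FPKM (E18), 46.5 and 54.7 FPKM (P5), and 36.9 and 38.7 FPKM (Adult) and fell (log2 change -1.08, SE 0.12, limma adjusted p = 0.00137). Tra2a-203, which also keeps an intron, had 7.88 and 5.71 FPKM (E18), 5.48 and 5.56 FPKM (P5), and 14.2 and 12.6 FPKM (Adult) and was called higher in Adult than at E18 (log2 change 0.89, SE 0.18, limma adjusted p = 0.011). That call was lost on TPM and without E18 replicate 2 or Adult replicate 1 (highest limma adjusted p = 0.0715 without a library).

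Regulators and partners of these proteins were listed beside them. Of 11 tested genes for SR protein kinases and nuclear import receptors, 2 were lower at P5 than at E18 (18.2%, beside 4.95% of all genes). That count did not hold in any fit that left out a library. Between Adult and P5, 2 were higher and 6 lower in Adult (18.2% and 54.5%, beside 26.2% and 33.7%), and in Adult against E18, 1 was higher and 5 lower (9.09% and 45.5%, beside 25.3% and 34.4%). The Adult counts moved with scaling. Against P5 they were 0 higher and 9 lower on TPM, beside 11.9% and 59.8% of all genes. With protein-coding scaling they were 4 higher and 3 lower, beside 38.1% and 24.55%. The kinases Clk1 and Clk4, which phosphorylate SR proteins in the nucleus, both fell at P5 against E18. Clk4 had 72.1 and 70.3 FPKM (E18), 51.9 and 55.9 FPKM (P5), and 89.2 and 91.0 FPKM (Adult) (log2 change -0.40, SE 0.09, limma adjusted p = 0.0467), and rose in Adult against P5 (log2 change 0.73, SE 0.09, limma adjusted p = 0.000923). Clk1 had 166 and 166 FPKM (E18), 121 and 127 FPKM (P5), and 159.6 and 153 FPKM (Adult) (log2 change -0.42, SE 0.09, limma adjusted p = 0.0362 at P5 against E18). P5 was lowest for both. The cytoplasmic kinase Srpk1 fell in Adult against E18 (log2 change -0.99, SE 0.12, limma adjusted p = 0.000765), as did Tnpo3, which imports SR proteins into the nucleus (log2 change -1.16, SE 0.14, limma adjusted p = 0.000696). Tnpo2, a nuclear import receptor, fell in Adult against P5 (log2 change -1.31, SE 0.16, limma adjusted p = 0.000818).

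Among 27 SR-related proteins, 7 fell and 0 rose at P5 against E18 (25.9% fell, beside 4.95% of all genes); 0 to 2 fell when a library was left out. In Adult against P5, 11 rose and 4 fell (40.7% and 14.8%, beside 26.2% and 33.7%). The direction turned to 2 rising and 15 falling on TPM, beside 11.9% and 59.8% of all genes. With protein-coding scaling the counts were 18 and 0, beside 38.1% and 24.55%. In Adult against E18, 4 rose and 7 fell (14.8% and 25.9%, beside 25.3% and 34.4%). With protein-coding scaling 11 rose and 2 fell there, beside 39.9% and 23.95%. The speckle scaffold Srrm2 had 61.1 and 54.4 FPKM (E18), 30.8 and 33.0 FPKM (P5), and 62.5 and 68.4 FPKM (Adult), lowest at P5. It fell at P5 against E18 (log2 change -0.83, SE 0.11, limma adjusted p = 0.0135) and rose in Adult against P5 (log2 change 1.01, SE 0.11, limma adjusted p = 0.000509). Rsrp1 fell at P5 (log2 change -0.75, SE 0.13, limma adjusted p = 0.0234) and Srrm1 rose in Adult against P5 (log2 change 1.54, SE 0.14, limma adjusted p = 0.000247). Luc7l and Rnps1 were lower in Adult than at E18 (log2 changes -0.76 and -0.63, limma adjusted p = 0.000689 and 0.00266). Of 21 other hnRNP-type proteins, 4 fell at P5 against E18 (19.0%, beside 4.95%), and 0 to 3 did when a library was left out. Against P5, 3 rose and 7 fell in Adult (14.3% and 33.3%, beside 26.2% and 33.7%). With protein-coding scaling 6 rose and 3 fell, beside 38.1% and 24.55% of all genes. In Adult against E18, 2 rose and 11 fell (9.52% and 52.4%, beside 25.3% and 34.4%). Nono, a paraspeckle protein, had 152 and 155 FPKM (E18), 97.3 and 95.01 FPKM (P5), and 65.4 and 67.8 FPKM (Adult). It fell at P5 against E18 (log2 change -0.67, SE 0.09, limma adjusted p = 0.0131) and in Adult against E18 (log2 change -1.19, SE 0.09, limma adjusted p = 0.000107). Fubp1 fell at P5 (log2 change -0.63, SE 0.09, limma adjusted p = 0.0169), and the cold-induced Rbm3 and the hnRNP R relative Syncrip fell in Adult against P5 (log2 changes -1.39 and -1.13, limma adjusted p = 0.000142 and 0.000305).

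In the core splicing machinery, as over all genes, more was called in Adult than at P5. Of 41 tested proteins of the U snRNPs, 1 (Snrpa) fell at P5 against E18 (log2 change -0.62, SE 0.11, limma adjusted p = 0.0246), which is 2.44% beside 4.95% of all genes, and 0 fell in any fit that left out a library. In Adult against P5, 1 rose and 22 fell (2.44% and 53.7%, beside 26.2% and 33.7% of all genes), and in Adult against E18, 28 fell and 0 rose (68.3% fell, beside 34.4%). With protein-coding scaling 9 rose and 17 fell against P5, beside 38.1% and 24.55% of all genes. Against E18, 4 rose and 15 fell, beside 39.9% and 23.95%. The count against E18 also moved when single libraries were left out. Snrpd1, a subunit of the Sm ring, had 65.8 and 65.2 FPKM (E18), 49.9 and 53.8 FPKM (P5), and 21.1 and 19.9 FPKM (Adult). It fell in Adult against E18 (log2 change -1.63, SE 0.10, limma adjusted p = 5.76e-05), as did Snrpe, another such subunit (log2 change -1.58, SE 0.11, limma adjusted p = 9.92e-05). Sf3b6 fell in Adult against P5 (log2 change -1.13, SE 0.09, limma adjusted p = 0.000164), and Sf3b3 did not pass at P5 (log2 change -0.41, limma adjusted p = 0.056). Among 16 tested helicases and Prp19-complex proteins, 2 (Dhx38 and Ctnnbl1) fell at P5 against E18 (12.5%), a count of 0 or 1 without single libraries. Of all genes, 4.95% fell at P5 against E18. Against P5, 2 of these proteins rose and 6 fell in Adult (12.5% and 37.5%, beside 26.2% and 33.7% of all genes). In Adult against E18, 9 fell and 0 rose (56.2% fell, beside 34.4%). With protein-coding scaling 4 rose and 3 fell, and 3 rose and 5 fell, beside the shares of all genes given above for that scaling. Bcas2 and Ddx39b fell in Adult against P5 by 0.72 and 0.75 on the log2 scale (limma adjusted p = 0.000972 and 0.00216). Of 15 tested NMD and exon-junction proteins, limma called 0 at P5 against E18 (1, Smg8, at an unadjusted p under 0.05). In Adult against P5, 4 rose and 4 fell (26.7% each, beside 26.2% and 33.7% of all genes). In Adult against E18, 2 rose and 7 fell (13.3% and 46.7%, beside 25.3% and 34.4%). On TPM the Adult counts were 0 rising with 9 falling and 0 rising with 11 falling, where 59.8% and 56.55% of all genes fell. Magoh, a core exon-junction protein, had 70.1 and 65.4 FPKM (E18), 60.2 and 68.1 FPKM (P5), and 26.5 and 24.3 FPKM (Adult). Magoh fell in Adult against E18 (log2 change -1.38, SE 0.11, limma adjusted p = 0.000146). Magohb fell in Adult against P5 and Eif4a3 in Adult against E18 (log2 changes -0.90 and -0.89, limma adjusted p = 0.00199 and 0.00178).

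Some members share sequence with other genes, which the deposited values may divide in unknown ways. The share of 31-base stretches of the main coding isoform that also occur in transcripts of another gene was 75.3% for Hnrnpa3, 56.2% for Hnrnpf, 54.7% for Hnrnpa1, 43.9% for Hnrnpk, 39.0% for Hnrnph2, and 37.6% for Srsf3. It was 37.0% for Srsf5, 34.3% for Hnrnpr, 32.0% for Hnrnpc and 21.0% for Tra2b, so their levels are less certain. It was 0 for Srsf2, Srsf6, Srsf11, Srsf12 and Tra2a and 2.52% for Hnrnpab. Coding genes overlap Srsf2 (Mettl23 and Mfsd11), Hnrnpab (Phykpl), Hnrnph3 (Rufy2), Hnrnpk (Rmi1), Hnrnpm (March2) and Hnrnpul2. Nothing in the labels says that counting used strand, so fragments of such neighbours cannot be told apart from those of the members.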

How the data were processed

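The deposited table lists isoforms with their FPKM in each library, estimated by the authors, and their lengths in bases. HISAT2, Cufflinks, Cuffdiff and the mm10 build are named, per the submitters' processing notes, without versions; how multi-mapping reads and strand were treated is not given in the sources used here. FPKM carry no counts, so depth is unknown and no counting interval can be given. The table's 10 other per-sample columns were not used. The P5 columns share one header, so their libraries are called a and b. Isoform types came from GENCODE vM21.

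Isoform FPKM were summed per gene symbol. limma 3.58.1 (R 4.3.3, with a variance trend) was fitted to log2(FPKM + 1) over all 6 libraries for genes or isoforms with a mean of at least 1 FPKM, and to percent shares, with Benjamini-Hochberg adjustment over everything tested and calls at 0.05. A fold change on the log2(FPKM + 1) scale understates the change of low genes. The steps were run on simulated data with normal noise and the same spread of a gene at every age. In the deposited values the Adult libraries were less alike than those of E18 or P5. That run therefore does not give error rates for these libraries. Replicate numbers did not pair the E18 and Adult libraries: the correlation of their deviations from the group means was 0.0183. Genes given in full were ranked within each comparison: the first 4 by p and the first 2 by mean FPKM, separately for SR with Tra2 genes and for hnRNP genes, then the first 4 by p in each share test, and the first 2 by p of each other splicing list. Other members appear by their values, ranges and counts. Members, lists and tests were chosen with earlier results of these data known. Alternatives were other scalings, pseudocounts, filters, variance models and share definitions, and leaving out each library. The NMD share, gene sums over annotated isoforms only, the non-coding share of all listed isoforms and the limit to annotated lengths were chosen after seeing the data.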

Additional observations from a re-analysis of the deposited data

How the results depend on the processing

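The replicate number as a block could be fitted for Adult against E18 alone, since the P5 columns carry no numbers; with the block 0 members were higher and 22 lower, against 0 and 21 without it, and the numbers did not pair the libraries. Scaling moved the Adult counts most. On TPM, Adult against P5 had 0 higher and 28 lower, beside 11.9% and 59.8% of all genes. Scaled to protein-coding genes it had 12 higher and 5 lower, beside 38.1% and 24.55%. Adult against E18 then had 5 higher and 12 lower, beside 39.9% and 23.95%. After quantile normalization these were 12 and 4, and 3 and 12, beside 26.2% and 31.7%, and 26.8% and 32.7%. Higher members in Adult against P5 numbered 3 without a variance trend, with only the 2 ages compared, and with annotated isoforms only; with only the 2 ages compared, 6 members were lower at P5 than at E18. Called shares in Adult against E18 numbered 3 (logit), 9 (FPKM times length) and 8 (at least 5 FPKM) for the minor share, 2 (logit) and 8 (at least 5 FPKM) for the non-coding share, and 2 (logit), 4 (at least 5 FPKM) and 0 (annotated lengths only) for the NMD share, which had 0 in Adult against P5 by FPKM times length. With a pseudocount of 0.1 FPKM, 8 member isoforms were lower at P5 than at E18. TPM was the only other scaling applied to isoforms. With all listed isoforms in the denominator, called non-coding shares numbered 5 in Adult against P5 and 4 against E18. Without each library in turn, calls at P5 against E18 numbered 0 to 1 higher and 0 to 6 lower, and 0 to 0 isoforms; Adult against P5 had 3 to 4 higher; minor shares had 0 to 3 calls (Adult against P5) and 0 to 4 (Adult against E18), non-coding shares 0 to 5 and 0 to 3, and NMD shares 0 to 2 and 0 to 2; isoforms in Adult against E18 had 52 to 94 calls. The sign turned for Srsf5 and Srsf2 on TPM (log2 change -0.35 and -0.50 in Adult against P5, -0.55 and -0.58 against E18), for Hnrnph1 in Adult against P5 (0.15 with protein-coding scaling, 0.27 after quantile normalization), for Hnrnpk there after quantile normalization (0.011), and with annotated isoforms only for Srsf2 (-0.32 and -0.53) and for Srsf5 against E18 (-0.034). It also turned for Tra2a (-0.29 on TPM) and Hnrnpll (0.025 with protein-coding scaling) in Adult against P5, and for Hnrnpl and Hnrnpa2b1 in Adult against E18 after quantile normalization (0.059 and 0.0445). Hnrnpa1-203 in Adult against P5 turned to -0.017 on TPM. With the most abundant isoform taken at E18, minor shares turned for Srsf3 and Srsf5 at P5 against E18 (11.4 and 5.64 percentage points) and for Srsf5 in Adult against E18 (14.5 percentage points); with annotated lengths the NMD share of Hnrnpdl at P5 against E18 turned to 2.17 percentage points. The cause of these shifts was not tested. With 2 libraries an age and no counts, small differences and depth effects could not be assessed.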
